A study of Homo sapiens with 24 samples.

Results

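The claudins described here are 8 genes, CLDN1, CLDN3, CLDN4, CLDN6, CLDN7, CLDN10, CLDN12 and CLDN16, chosen by name among the 28277 gene rows of each count table. All 8 were present in both tables and were followed over the 8 conditions of the series. The low-count filter kept 6 of the 8 for testing in the A cells, where CLDN6 and CLDN10 were too low, and 7 of the 8 in the B cells and across both tables, where CLDN6 was too low.

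Claudins are small tetraspan membrane proteins that polymerise into the strands of epithelial tight junctions, where they seal the space between cells or form pores through it. CLDN1 is a classical sealing claudin of skin and other barriers. CLDN3 and CLDN4 are known for high expression in ovarian carcinoma and are receptors of Clostridium perfringens enterotoxin. CLDN7 binds EPCAM, CLDN10 forms ion pores, CLDN12 lacks the usual C-terminal motif that binds PDZ domains, CLDN16 is known for magnesium reabsorption in the kidney, and CLDN6 is an embryonic claudin that returns in some tumours.

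PEO1 and PEO4 are established ovarian adenocarcinoma lines from the same patient, and PEO4 is the cisplatin-resistant counterpart. PEO1 A cells were impaired in BRCA2 by the study's methods, although their genotype label reads WT, and were compared with PEO4 A, both untreated and both grown with sodium pyruvate. PEO1 B carried the genotype label BRCA2+, a PEO1 stock in which BRCA2 had been regained, and was compared with PEO4 B, labelled WT. PEO1 B and PEO4 B were each left untreated or given 5 µM pyridostatin (PDS), a small molecule that stabilises DNA G-quadruplexes, for 2 or 6 h. Each of the 8 conditions had 3 libraries. The study calls its RNA-seq replicates biological, the labels do not tie them to separate cultures, and the p-values measure the spread between these libraries.

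Library totals were 32528913 to 63882077 counts in A, 18699929 to 22375644 in untreated B and 33260167 to 43713947 in B after PDS. Ribosomal RNA took 0.217 to 0.474% of the counts in untreated B and 0.0163 to 0.0369% after PDS, so that depth and ribosomal share changed together with treatment and cannot be told apart from it in these comparisons. The 10 ovarian carcinoma markers, PAX8, WT1 and EPCAM among them, were detected in all 24 libraries and summed to 6780 to 16400 CPM (counts scaled to a common effective library size). The 5 fibroblast markers summed to 2.73 to 36.9 CPM, with DCN at 0 counts in 15 libraries and LUM in 17, 5 leukocyte markers to 0.755 to 6.27 CPM, with CD3E at 0 in all 24, and 4 endothelial markers to 0.183 to 2.76 CPM, with CDH5 at 0 in 14. In bulk RNA, fewer cells that express a gene and less of its RNA per cell cannot be told apart.

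The 8 genes include 2 pairs of neighbours. CLDN1 (chr3:190305707-190322446, minus strand) and CLDN16 have canonical starts 65.7 kb apart on opposite strands, and a further CLDN16 transcript with no defined coding sequence starts 95 bases from the CLDN1 start and runs away from it. RefSeq begins CLDN16 (chr3:190290361-190412138, plus strand) on the far side of CLDN1, so that CLDN1 lies inside it on the other strand. CLDN3 (chr7:73768997-73770270, minus strand) and CLDN4 (chr7:73830996-73832690, plus strand) have canonical transcripts of 1 exon each, whose starts lie 60.7 kb apart and which are transcribed away from each other. GENCODE gives CLDN4 further exons, with a first start 29.3 kb from that of CLDN3. Exons of CLDN1, CLDN3, CLDN4 and CLDN16 overlap no other gene in GENCODE. CLDN7 (chr17:7259903-7263213, minus strand) shares 269 exonic bases with ENSG00000262302 on its own strand and 38 with ELP5 on the other strand. CLDN12 (chr7:90403461-90415954, plus strand) shares 531 with PTTG1IP2, 371 with ENSG00000273299, 347 with GTPBP10 and 201 with CDK14, all on its own strand. CLDN10 (chr13:95433755-95579759, plus strand) shares 1558 with DZIP1 on the other strand and CLDN6 (chr16:3014712-3018183, minus strand) shares 40 with TNFRSF12A on the other strand. These shared bases were counted over all GENCODE transcripts of a gene. Such transcripts reach beyond the RefSeq interval given for CLDN12 (to chr7:90383721-90513402), CLDN6 (to chr16:3014712-3020071), CLDN7 (to chr17:7259903-7263983) and CLDN10 (to chr13:95433604-95579759). The canonical CLDN12 transcript overlaps exons of ENSG00000273299 only, and that of CLDN6 overlaps no other gene. Because the strand setting of the counting was not given in the sources used here, reads from stretches shared across strands cannot be assigned with certainty, and reads from stretches shared on 1 strand could not be assigned by strand at all.

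The 250 bases before the canonical start of the neighbouring genes are shown because PDS binds G-quadruplexes and because these genes lie in pairs. The sequences are those of RefSeq (GRCh38.p14), which held promoters for all 8 claudins, written from 5′ to 3′ on the strand of each gene and ending at the base before the start. Capitals mark, on either strand, the Sp1 box GGGCGG and the G-quadruplex motif, defined as 4 runs of GGG with 1 to 7 bases between runs. The windows were chr3:190322447-190322696 for CLDN1, chr3:190387913-190388162 for CLDN16, chr7:73770271-73770520 for CLDN3 and chr7:73830746-73830995 for CLDN4.
CLDN1: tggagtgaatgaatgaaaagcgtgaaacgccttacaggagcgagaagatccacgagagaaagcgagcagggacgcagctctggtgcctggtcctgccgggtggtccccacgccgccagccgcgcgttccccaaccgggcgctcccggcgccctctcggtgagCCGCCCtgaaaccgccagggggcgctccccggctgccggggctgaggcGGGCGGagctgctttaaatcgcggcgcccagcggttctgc
CLDN16: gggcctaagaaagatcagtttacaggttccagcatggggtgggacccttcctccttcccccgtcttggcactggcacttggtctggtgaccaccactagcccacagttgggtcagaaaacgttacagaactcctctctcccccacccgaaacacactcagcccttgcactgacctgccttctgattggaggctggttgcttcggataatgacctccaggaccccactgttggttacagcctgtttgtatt
CLDN3: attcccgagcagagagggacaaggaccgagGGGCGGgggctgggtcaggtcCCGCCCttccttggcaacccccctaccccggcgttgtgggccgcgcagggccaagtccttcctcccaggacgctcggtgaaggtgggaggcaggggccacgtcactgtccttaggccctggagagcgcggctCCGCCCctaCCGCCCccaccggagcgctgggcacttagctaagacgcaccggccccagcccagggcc
CLDN4: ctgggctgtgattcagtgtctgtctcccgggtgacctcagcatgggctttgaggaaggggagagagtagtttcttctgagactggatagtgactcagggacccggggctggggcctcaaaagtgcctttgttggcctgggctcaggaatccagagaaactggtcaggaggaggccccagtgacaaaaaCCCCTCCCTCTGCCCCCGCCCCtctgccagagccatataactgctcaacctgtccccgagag
CLDN4 held the only G-quadruplex motif among these 4 windows, on the strand opposite to transcription, and it contains the gene's 1 Sp1 box. CLDN3 held 4 Sp1 boxes and CLDN1 held 2, whereas this CLDN16 window had neither motif. The window before the other RefSeq start of CLDN16 (chr3:190290111-190290360) held 1 Sp1 box and no G-quadruplex motif. Among the claudins not shown, the windows of CLDN7 and that before the canonical start of CLDN10 also held the G-quadruplex motif, and those of CLDN6 and CLDN12 did not. A link between the motif and the response to PDS was not tested. Of 35116 RefSeq promoter windows of this length, 23.3% held the G-quadruplex motif and 42.6% held an Sp1 box on either strand. These are matches of letters, not measured binding.

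Levels were first compared between claudins per kilobase of the canonical transcript. That length was 1695 bases for CLDN4, 1542 for CLDN7 and 1274 for CLDN3. Over all GENCODE transcripts the exonic bases were 4699, 2492 and 1274. The annotation used for counting was not given, so the order and the shares below hold for the canonical lengths only. CLDN4 led in 7 of the 8 conditions, from 164 ± 12 CPM per kb (SD, n = 3) in PEO1 A to 386 ± 39.7 in PEO4 B after 2 h of PDS. The exception was untreated PEO1 B, where CLDN1 had the highest mean at 256 ± 23.8 CPM per kb and CLDN4 had 223 ± 12.5, with overlapping ranges of 230 to 276 and 209 to 232. These 2 genes also overlapped in PEO1 B after 6 h of PDS, at 264 to 307 CPM per kb for CLDN1 and 295 to 333 for CLDN4. CLDN7 came next in PEO1 A, PEO4 A and all 3 conditions of PEO4 B, at 128 to 187 CPM per kb, and its range overlapped that of CLDN4 in PEO4 A and untreated PEO4 B. CLDN3 followed at 49.3 to 136 CPM per kb in those same 5 conditions. In PEO1 B, CLDN3 stood behind CLDN1, CLDN4 and CLDN7, at 63.5 ± 4.79 CPM per kb untreated and 34.0 ± 3.97 after 6 h of PDS.

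CLDN12 and CLDN16 were lower than CLDN3, CLDN4 and CLDN7, at 9.21 to 21.3 and 4.09 to 18.2 CPM per kb. Outside PEO1 B, CLDN1 was at 15.5 to 35.8 CPM per kb. CLDN12 was above it in PEO4 B after 2 h of PDS (19.8 against 15.5) and had the same mean in PEO4 A (21.3). CLDN12 was above CLDN16 in the A cells and in PEO4 B, and below it in PEO1 B. CLDN6 and CLDN10 were close to undetected, with means of at most 0.105 and 0.136 CPM per kb. CLDN6 had 0 to 8 counts per library, and CLDN10 had 0 to 4 in A and 1 to 13 in B, where a count of 0 allows up to 3 counts. Tables A and B were scaled separately, so levels set across them carry that difference.

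Shares of the summed level per kb of the 8 genes describe the mix of claudins. CLDN1 made up 37.1 ± 3.29% of the sum in untreated PEO1 B, against 5.19 ± 0.552% in untreated PEO4 B, 8.43 ± 2.58% in PEO1 A and 4.45 ± 1.93% in PEO4 A. CLDN4 made up 39.6 ± 4.82% in untreated PEO4 B and 51.5 ± 0.799% after 2 h of PDS. CLDN3 made up 22.3 ± 3.05% there and 9.47 ± 0.330% after 6 h. The sum of the 8 was 692 ± 4.75 CPM per kb in untreated PEO1 B and 826 ± 15.2 after 6 h of PDS, and in PEO4 B it was 485 ± 50.4 untreated, 749 ± 66.5 after 2 h and 520 ± 15.6 after 6 h.

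**Figure D1:**
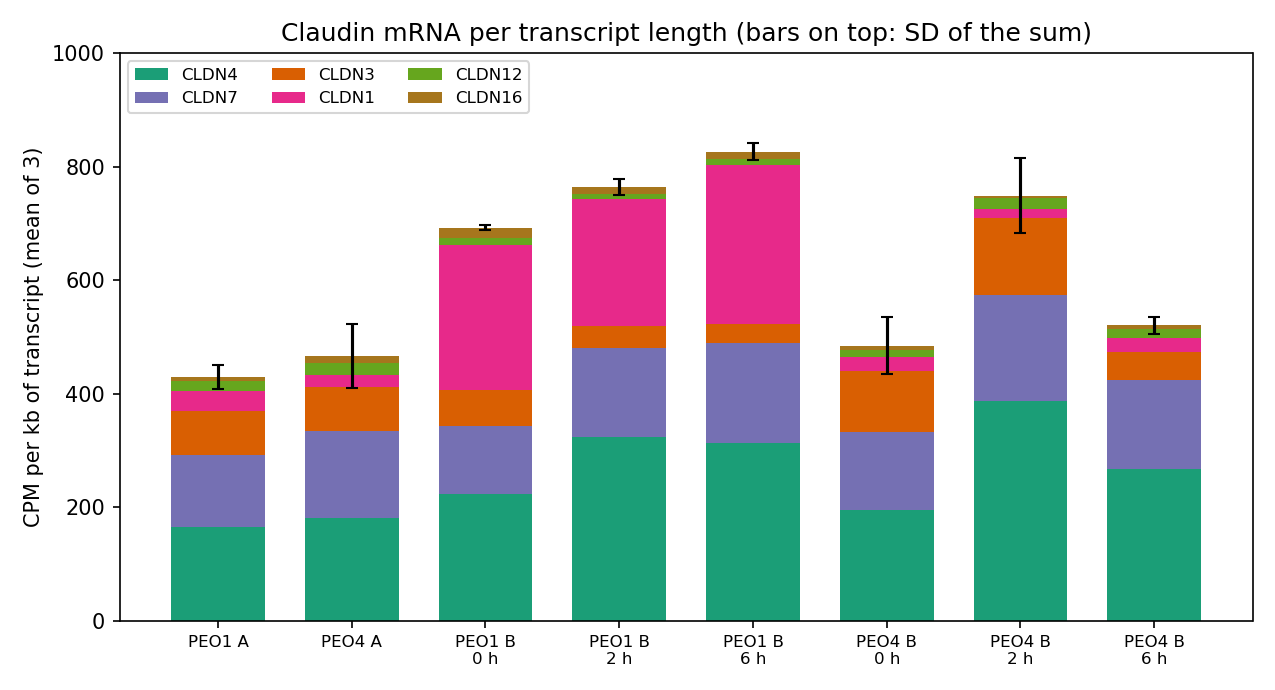
Stacked bars give the mean CPM per kb of transcript (n = 3) of 6 claudins in the 8 conditions, and the black bars give the SD of the sum of all 8. The CLDN1 block is large in the 3 PEO1 B conditions (225 to 279 CPM per kb) and small elsewhere (15.5 to 35.8).

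The A comparison asked how the cisplatin-sensitive and resistant lines differ when PEO1 lacks BRCA2. A gene was called when edgeR's quasi-likelihood test gave a Benjamini-Hochberg adjusted p under 0.05 with an absolute log2 fold change over 1. None of the 6 tested claudins was called between PEO4 A and PEO1 A, where 25.8% of all tested genes were called. By the adjusted p alone 2 of the 6 passed, against 61.6% of all tested genes, the same number had an unadjusted p under 0.05, and DESeq2 called none either. CLDN3 had the same level in both lines, 98.1 ± 14.4 and 98.2 ± 10.8 CPM, with a 95% interval of the log2 difference from -0.24 to 0.24. CLDN4 differed by 0.13 on the log2 scale (interval -0.10 to 0.37). CLDN7 and CLDN12 were slightly higher in PEO4 A, by 0.26 (adjusted p = 0.0085) and 0.29 (adjusted p = 0.0096), both under the fold threshold, and without 1 of the 6 libraries the largest adjusted p rose to 0.055 and 0.053.

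CLDN1 and CLDN16 were the variable members in A. CLDN1 was at 85.1, 144 and 141 CPM in the PEO1 A libraries and at 34.2, 108 and 78.6 in the PEO4 A libraries. CLDN16 was at 16.1, 22.3 and 22.6 CPM in PEO1 A and at 17.8, 54.5 and 40.9 in PEO4 A. Replicate 1 was the lowest for both genes in both lines, and the lines overlapped for both. The log2 differences were -0.75 ± 0.500 for CLDN1 (adjusted p = 0.26) and 0.89 ± 0.447 for CLDN16 (SE, adjusted p = 0.15). Without PEO4 A replicate 1, CLDN16 was called higher in PEO4 A, by 1.24 (adjusted p = 0.00032), and the CLDN1 difference was -0.40 (adjusted p = 0.38). Within each line the ratio of the neighbours stayed narrow, with 5.30 to 6.49 CLDN1 reads per CLDN16 read in PEO1 A and 1.92 to 1.98 in PEO4 A.

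In the untreated B cells CLDN1 had the largest line difference among the 7 tested claudins of the list. It was at 909, 792 and 950 CPM in PEO1 B and at 99.4, 95.3 and 67.0 in PEO4 B, with no overlap. It was 10.1-fold lower in PEO4 B, a log2 difference of -3.34 ± 0.117 (SE, adjusted p = 2.7e-14). Its neighbour CLDN16 was also called, at 52.3, 53.3 and 56.5 CPM in PEO1 B and 25.2, 25.3 and 17.8 in PEO4 B, a log2 difference of -1.25 ± 0.0976 (adjusted p = 5.9e-11). These 2 of 7 tested claudins were called lower and none was called higher, against 12.6% of all tested genes called lower and 24.8% called in either direction. By the adjusted p alone 5 of the 7 passed, against 68.6% of all tested genes.

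CLDN3 went the other way, at 76.8, 87.9 and 78.0 CPM in PEO1 B and 129, 143 and 138 in PEO4 B. Its libraries did not overlap, and the log2 difference of 0.76 ± 0.112 (adjusted p = 1.3e-05) was under the fold threshold. CLDN7 and CLDN12 differed by 0.21 (adjusted p = 0.0057) and 0.18 (adjusted p = 0.03), and CLDN4 by -0.20 (adjusted p = 0.13, interval -0.45 to 0.04).

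**Figure D2:**
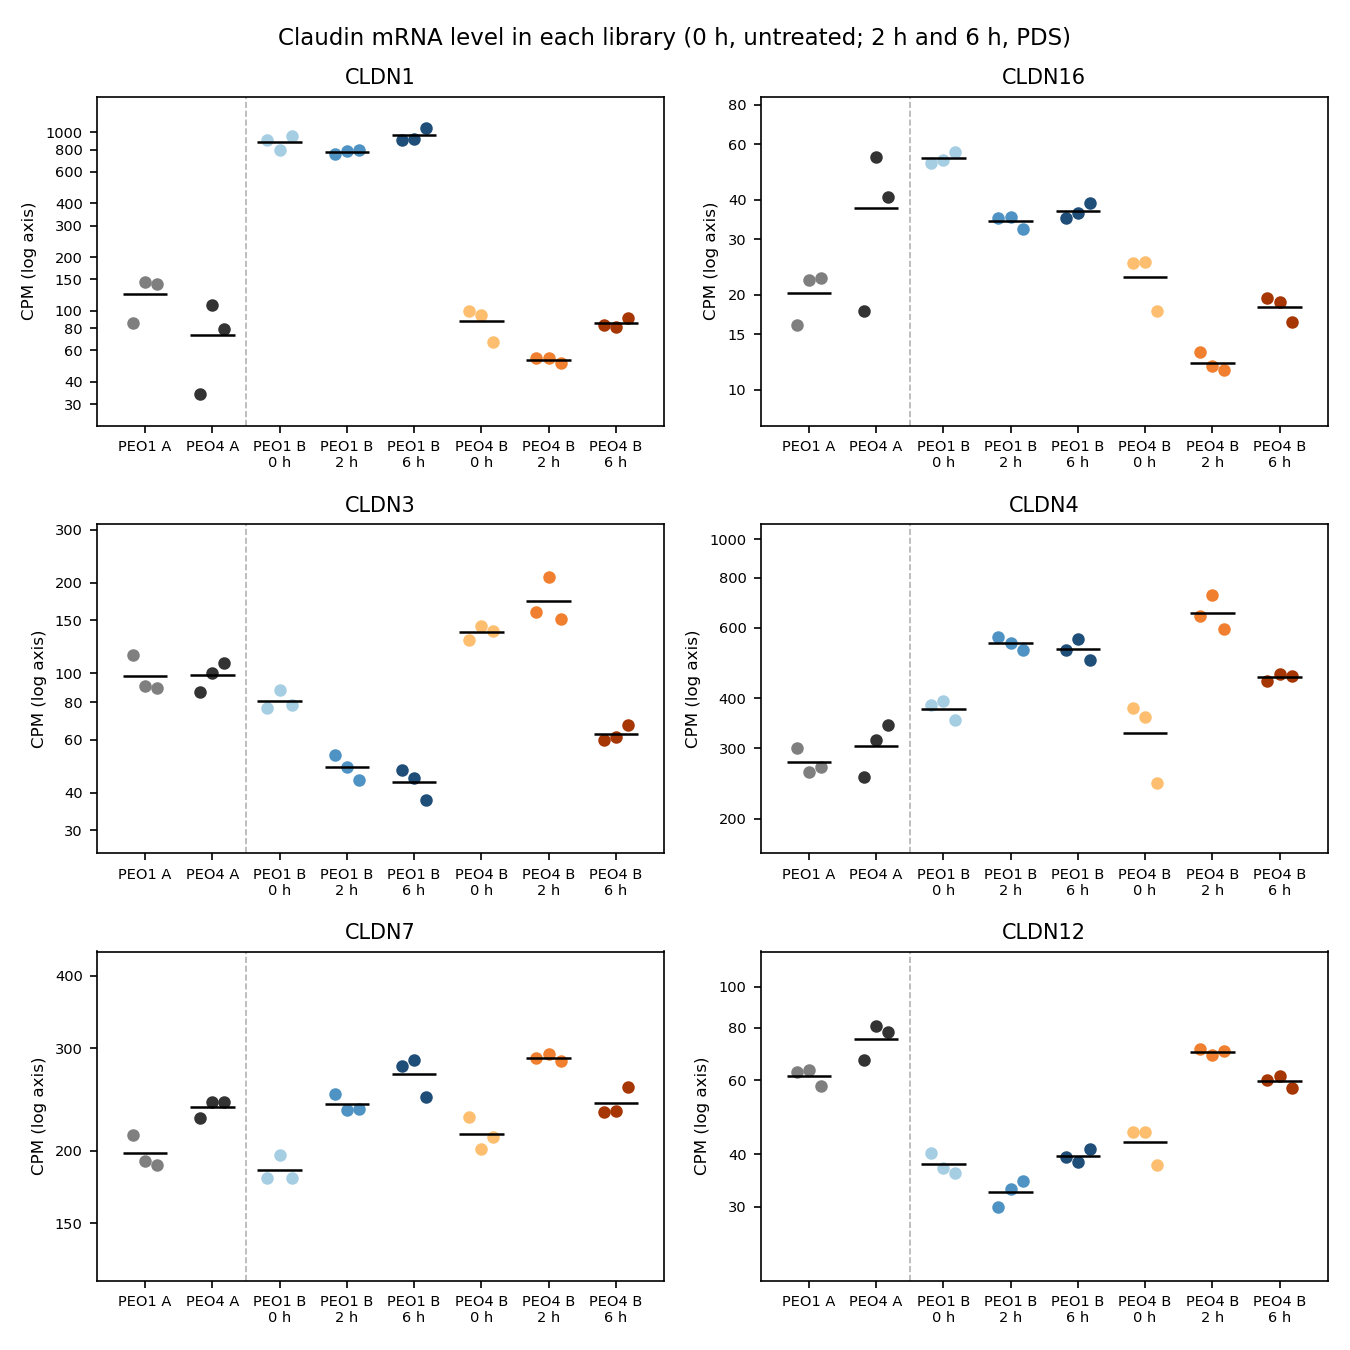
Points are the CPM of each library on log axes for 6 claudins in the 8 conditions, horizontal lines are means (n = 3), and the dashed line separates the A and B tables. CLDN1 lies at 756 to 1058 CPM in all 9 PEO1 B libraries and at 34.2 to 144 CPM in the other 15.

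The difference between the lines was itself compared between the B pair and the A pair in 1 fit of all 24 libraries. CLDN1 and CLDN16 were called, 2 of 7 tested, both lower, against 15% of all tested genes in either direction and 6.27% lower, with log2 differences of -2.55 ± 0.401 (adjusted p = 6e-05) and -2.10 ± 0.376 (adjusted p = 0.00021). For CLDN1 the PEO4 means were 73.5 ± 37.1 CPM in A and 87.2 ± 17.7 in B, whereas the PEO1 means were 123 ± 33.3 and 884 ± 82.0. For CLDN16 the PEO1 means were 20.3 ± 3.67 CPM in A and 54.1 ± 2.23 in B. The PEO4 means were 37.7 ± 18.6 and 22.8 ± 4.30, with overlapping libraries at 17.8 to 54.5 CPM in A and 17.8 to 25.3 in B. A change of PEO4 between A and B was not tested. CLDN3 had a difference of 0.79 (adjusted p = 0.00078), and CLDN4, CLDN7, CLDN10 and CLDN12 had adjusted p of 0.15 to 0.89, so that 3 of 7 passed the adjusted p alone against 42.6% of all tested genes. BRCA2 status, cell stock, medium and sequencing table all changed between A and B and cannot be told apart.

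PDS was then followed within PEO1 B, where no claudin was called at 2 h or at 6 h, against 7.57% and 8.13% of all tested genes. By the adjusted p alone 5 and 4 of the 7 passed, against 52.6% and 53% of all tested genes, as many had an unadjusted p under 0.05, and DESeq2 called none at either time. Both contrasts share the untreated libraries. CLDN3 was at 76.8, 87.9 and 78.0 CPM untreated, at 53.3, 48.7 and 44 after 2 h and at 47.5, 44.7 and 37.7 after 6 h. Every treated library was under every untreated one, with log2 differences of -0.73 ± 0.114 (adjusted p = 4.3e-05) and -0.90 ± 0.115 (adjusted p = 4.8e-06), both short of the fold threshold. With library totals as the scaling the 6 h value was -1.05 and CLDN3 was called. CLDN4, its neighbour, was at 385, 394 and 354 CPM untreated, at 530 to 569 after 2 h and at 500 to 564 after 6 h. It was higher in every treated library, by 0.54 ± 0.116 (adjusted p = 0.0009) and 0.49 ± 0.116 (adjusted p = 0.0019). The number of CLDN4 reads per CLDN3 read, a description of the same values, was 4.48 to 5.01 untreated, 10.7 to 12 after 2 h and 11.1 to 13.3 after 6 h.

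CLDN7, the EPCAM-binding claudin, was 0.38 higher after 2 h (adjusted p = 2.1e-05) and 0.55 higher after 6 h (adjusted p = 8.9e-08), from 179 to 196 CPM untreated to 247 to 286 at 6 h. CLDN16 was at 52.3 to 56.5 CPM untreated and 32.3 to 35.2 after 2 h, a log2 difference of -0.66 ± 0.0924 (adjusted p = 2.4e-06), and at 34.9 to 39.2 after 6 h, a difference of -0.55 (adjusted p = 2.2e-05). CLDN1 did not pass the test at either time, with log2 differences of -0.19 (interval -0.41 to 0.04) and 0.12 (interval -0.10 to 0.35), and with library totals as the scaling the latter was -0.02. CLDN12 was 0.22 lower at 2 h (adjusted p = 0.012) and differed by 0.07 at 6 h, which turned to -0.08 with library totals. Between 2 and 6 h no claudin was called, against 0.17% of all genes, and CLDN12, at 0.28 (adjusted p = 0.011), was the 1 of 7 that passed the adjusted p alone, against 6.94%, while 3 had an unadjusted p under 0.05 and DESeq2 called none. The carcinoma markers summed to 10800 to 11100 CPM in untreated PEO1 B and 15000 to 16400 after 2 h, but did not move together. KRT7, KRT8, KRT18, KRT19 and EPCAM were higher at 2 h, with log2 differences of 0.30 to 0.82. MUC16 was called lower at -2.29, MSLN and WT1 were at -0.44 and -0.27, and CDH1 and PAX8 were at -0.08 and -0.03. The part of these markers in the claudin results was not tested.

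In PEO4 B no claudin was called after 2 h of PDS, against 17.4% of all tested genes, and DESeq2 called none either. With the adjusted p alone 6 of the 7 passed, against 65.3%, and 6 had an unadjusted p under 0.05. CLDN4 came closest, at 378, 359 and 247 CPM untreated and 641, 727 and 595 after 2 h, with no overlap. Its log2 difference of 0.996 ± 0.116 (adjusted p = 1.2e-06) lay just under the threshold and rested on a wide untreated group. Without untreated replicate 3 it was 0.83 (adjusted p = 1.9e-10), without 2 h replicate 2 it was 0.92, and it was called without untreated replicate 1 (1.11) or 2 (1.07), without 2 h replicate 1 (1.01) or 3 (1.06) and, barely over 1, without replicate 1 of PEO1 B after 6 h, which enters only through the shared spread and scaling. CLDN12 was 0.71 higher (adjusted p = 1.7e-09), at 37.8 to 45.2 CPM untreated and 68.7 to 71.1 at 2 h. CLDN7 was 0.44 higher (adjusted p = 1.4e-06) and CLDN3 0.34 higher (adjusted p = 0.011), the latter at 160, 209 and 152 CPM against 129, 143 and 138 untreated. The neighbours CLDN1 and CLDN16 were both lower, by -0.71 ± 0.112 (adjusted p = 2.2e-05) and -0.90 ± 0.103 (adjusted p = 5.6e-08) on the log2 scale. CLDN16 was called without untreated replicate 3, at -1.05, and with library totals, at -1.03.

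After 6 h in PEO4 B, CLDN3 and CLDN10 were called lower, 2 of 7 tested against 16.3% of all tested genes called lower and 22.6% called in either direction. By the adjusted p alone 6 of the 7 passed, against 69.8%. CLDN3 was at 60, 61 and 67.4 CPM, under every untreated library, a log2 difference of -1.12 ± 0.112 (adjusted p = 1.1e-07). CLDN10 rested on 2 to 8 counts per untreated library and 1 to 5 after 6 h, with overlapping counts, a log2 difference of -1.38 ± 0.584 (adjusted p = 0.039), and the call was lost without untreated replicate 1 or 3 or without 6 h replicate 2 (adjusted p = 0.089, 0.23 and 0.14). CLDN10 was also not called by DESeq2 (adjusted p = 0.059) or with no filter on low counts (adjusted p = 0.075), and it was too low to be tested in a fit of only the groups compared, each of which left CLDN3 as the 1 claudin called. CLDN4 and CLDN12 were 0.46 (adjusted p = 0.002) and 0.48 (adjusted p = 8.5e-07) higher, and CLDN7 was 0.18 higher (adjusted p = 0.016). CLDN16 was at -0.31 (adjusted p = 0.0079), and CLDN1 was back at 81.1 to 90.9 CPM, within the untreated range of 67.0 to 99.4. Among all genes, 1066 were called higher and 2782 lower, and with library totals as the scaling 698 and 3334.

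From 2 to 6 h in PEO4 B, CLDN3 was called lower, 1 of 7 against 9.71% of all tested genes called lower and 12% in either direction, by -1.47 ± 0.112 on the log2 scale (adjusted p = 9.4e-09), a 2.76-fold drop from 152 to 209 CPM to 60 to 67.4. CLDN4 went down over the same interval by -0.53 (adjusted p = 0.00079), CLDN7 by -0.26 and CLDN12 by -0.23, and CLDN1 and CLDN16 went up by 0.68 (adjusted p = 4.4e-05) and 0.59 (adjusted p = 2.3e-05), all 5 under the fold threshold. By the adjusted p alone 6 of the 7 passed, against 60.1% of all tested genes. The fibroblast markers summed to 29.7 to 31.0 CPM in untreated PEO4 B, 8.47 to 12.2 at 2 h and 3.29 to 4.49 at 6 h, and their part in these results was not tested.

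**Figure D3:**
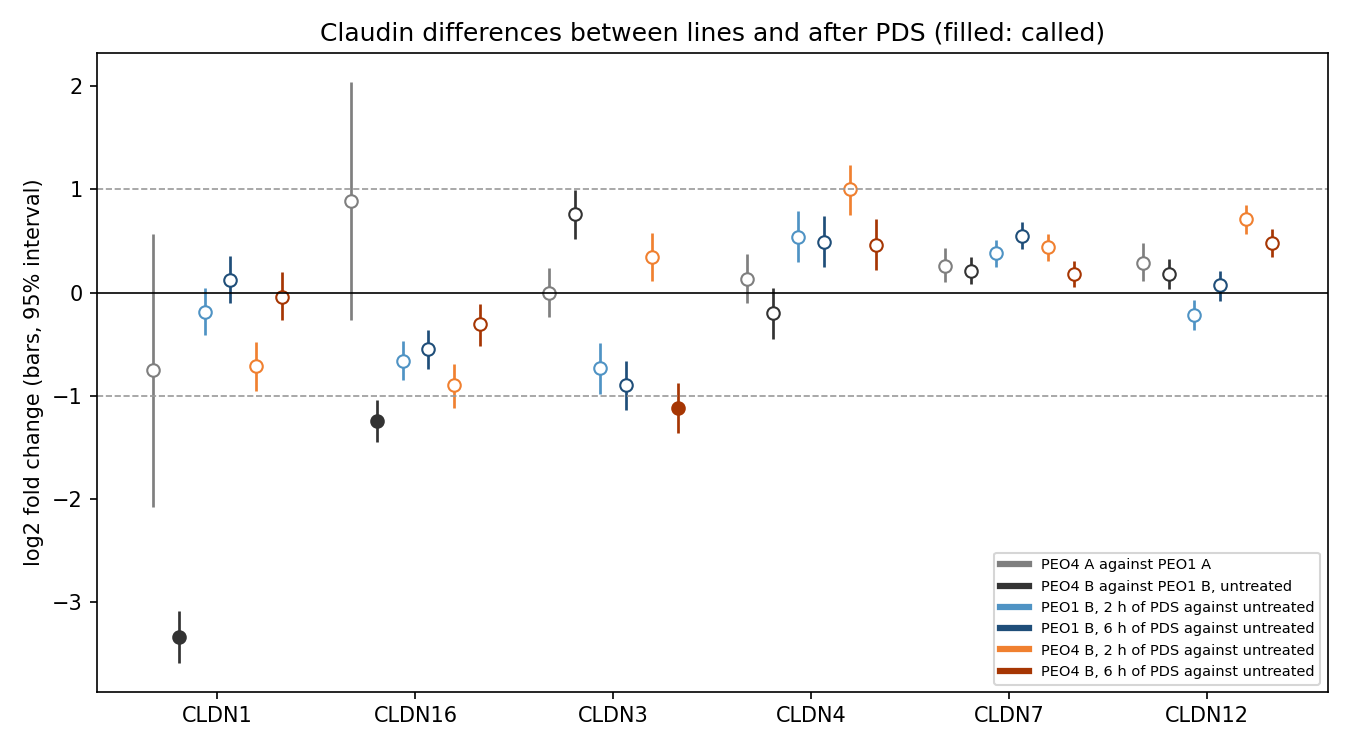
Points are log2 fold changes and vertical bars 95% intervals from edgeR for 6 claudins in 6 comparisons, filled where called and with dashed lines at the fold threshold. CLDN3 is lower after 6 h of PDS in both lines (-0.90 in PEO1 B and -1.12 in PEO4 B), and CLDN4 is higher at both times in both lines (0.46 to 0.996).

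Whether the 2 lines responded differently was tested on the difference of their responses. At 2 h CLDN3 was the 1 of 7 claudins called, against 11% of all tested genes in either direction and 6.1% higher, with a response 1.08 ± 0.158 higher in PEO4 B than in PEO1 B on the log2 scale (adjusted p = 4.6e-05). It was 0.34 higher after PDS in PEO4 B and 0.73 lower in PEO1 B. Without PEO4 B 2 h replicate 2, the library with 209 CPM, the difference was 0.92 (adjusted p = 3.2e-06) and under the fold threshold. CLDN12 responded differently by 0.93 ± 0.0973 (adjusted p = 5.4e-08), CLDN1 by -0.52 (adjusted p = 0.012) and CLDN4 by 0.45 (adjusted p = 0.039). For CLDN7 and CLDN16 the intervals of the difference were -0.12 to 0.24 and -0.53 to 0.04. By the adjusted p alone 4 of the 7 passed at 2 h and 2 at 6 h, against 37.3% and 47.4% of all tested genes. At 6 h no claudin was called by edgeR or DESeq2, against 14.8% of all tested genes, and 2 had an unadjusted p under 0.05. The CLDN3 difference was -0.22 (interval -0.56 to 0.12), that of CLDN4 -0.03 (interval -0.38 to 0.32), that of CLDN7 -0.38 (adjusted p = 0.0012) and that of CLDN12 0.41 (adjusted p = 0.0011).

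**Figure D4:**
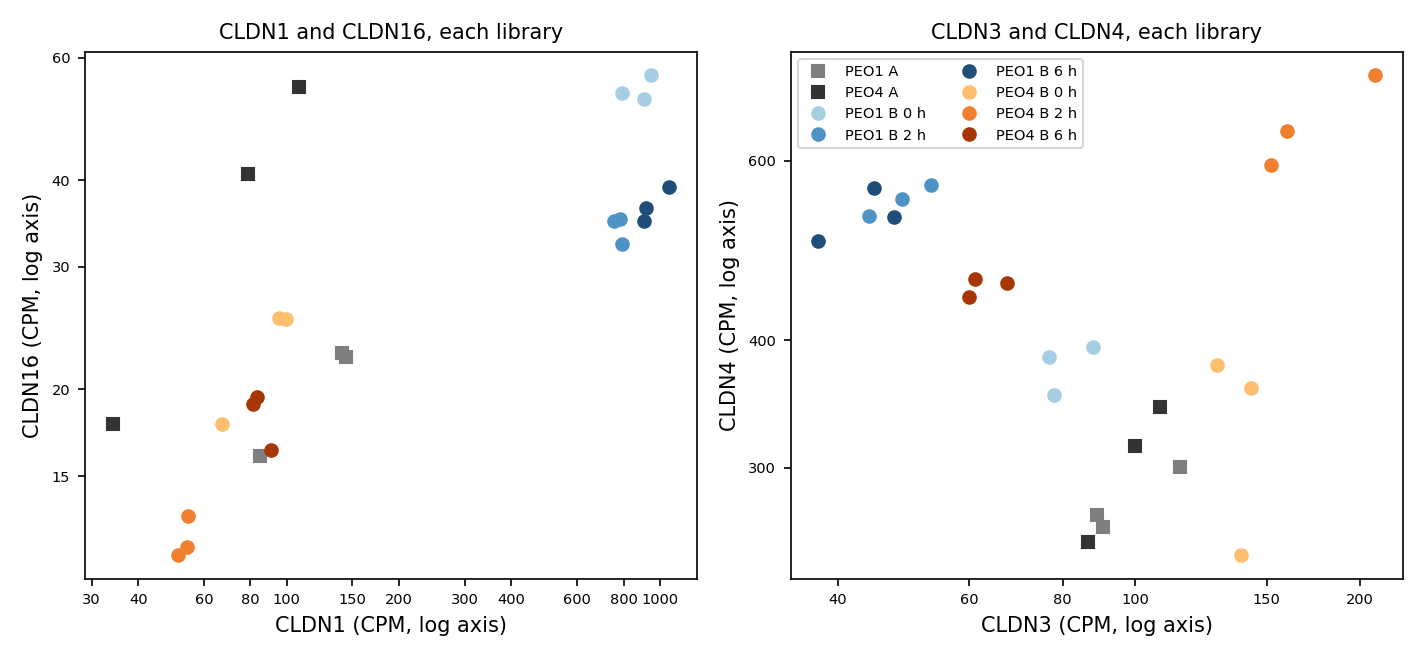
Each point is 1 of the 24 libraries, with the CPM of neighbouring claudins on log axes, squares for A and circles for B. CLDN4 lies at 354 to 394 CPM in untreated PEO1 B and at 500 to 569 after PDS while CLDN3 lies lower (37.7 to 53.3 against 76.8 to 87.9), and CLDN1 and CLDN16 are both lower in the PEO4 B libraries than in those of PEO1 B.

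The remaining claudins of the tables numbered 16, of which 7 were tested in each table. In PEO4 against PEO1, 2 were called higher and 1 lower in A, and 3 higher and 1 lower in untreated B, where 25.8% and 24.8% of all tested genes were called. CLDN11, the claudin of myelin and Sertoli cell junctions, was called in 8 of the 11 comparisons. It was at 44.1 to 54.6 CPM in PEO1 A and 2.95 to 3.79 in PEO4 A, a log2 difference of -3.86 (adjusted p = 2.5e-10). In untreated B it was at 18.8, 19.8 and 19.0 CPM in PEO1 and 6.02, 4.97 and 8.15 in PEO4, a difference of -1.58 (adjusted p = 2.7e-11). PDS moved it in opposite directions, to 8.77 to 9.75 CPM at 2 h in PEO1 B (-1.08, adjusted p = 2.6e-08) and to 12.8 to 14.1 CPM in PEO4 B (1.07, adjusted p = 3.8e-08). The responses differed by 2.15 at 2 h (adjusted p = 3.5e-10) and 2.38 at 6 h (adjusted p = 6.8e-11).

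CLDN9, which lies beside CLDN6 with starts 5.26 kb apart, was called higher in PEO4 in both pairs, by 2.94 in A (adjusted p = 1.1e-06) and 2.86 in untreated B (adjusted p = 3.4e-13), at 11.8 to 13.4 CPM in untreated PEO4 B against 1.29 to 1.93 in PEO1 B. CLDN8 was called higher in PEO4 A, by 4.75 (adjusted p = 3.5e-09), at 9.33 to 11.6 CPM against 0.293 to 0.534, and was not tested in B. CLDN23 was called higher in untreated PEO4 B, by 1.2 (adjusted p = 4e-11).

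Claudins bind scaffold proteins at the junction, and 21 of 22 scaffold and partner genes were tested in each table. Between the A lines 3 were called higher and 3 lower in PEO4 (median log2 difference -0.08, against -0.01 over all genes), and in untreated B 2 higher and 3 lower (median 0.02, against 0). These 6 and 5 of 21 stand beside 25.8% and 24.8% of all tested genes called in A and untreated B. CGNL1, a paracingulin of the junction plaque, was -3.31 in A and JAM3, an immunoglobulin-like adhesion molecule, was -2.55, whereas CXADR, the coxsackie and adenovirus receptor, was 2.20. In untreated B the largest were JAM3 at -3.18, TJP3 (ZO-3) at 2.59 and CGNL1 at -2.21 (adjusted p = 5e-17, 6.9e-11 and 6.8e-11).

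After PDS no scaffold gene was called higher, where 1.18% and 1.29% of all tested genes were called higher after 2 and 6 h in PEO1 B and 6.4% and 6.26% in PEO4 B. The shares of all tested genes called lower were 6.39% and 6.83% in PEO1 B and 11% and 16.3% in PEO4 B. In PEO1 B 1 was called lower at 2 h, MARVELD2 (tricellulin) at -1.04, and 2 at 6 h, TJP3 at -1.23 and ILDR1 at -1.14. In PEO4 B 1 was called lower at 2 h, CXADR at -1.69 (adjusted p = 1.2e-09), and 4 at 6 h, TJP3 at -3.33 (adjusted p = 2.8e-12), CGNL1 at -2.29 (adjusted p = 3.2e-08), ILDR1 at -2.04 (adjusted p = 4.5e-12) and CXADR, for a list median of -0.34 against -0.03 over all genes. TJP3 was at 36.5, 30.7 and 43.9 CPM in untreated PEO4 B, 19.0, 25.1 and 15.8 after 2 h and 3.48, 3.42 and 4.16 after 6 h, each step without overlap. From 2 to 6 h in PEO4 B 3 scaffold genes were called lower. Of all tested genes 9.71% were called lower over this interval and 12% in either direction. TJP3 dropped by 2.43 from 2 to 6 h on the log2 scale (adjusted p = 8.9e-10). OCLN (occludin) and TJP1 (ZO-1) were under the fold threshold after PDS in both lines but passed the adjusted p at both times. OCLN was -0.66 and -0.54 after 2 and 6 h in PEO1 B and -0.65 and -0.64 in PEO4 B, and TJP1 was -0.85 and -0.84 in PEO1 B and -0.77 and -0.39 in PEO4 B (adjusted p of 0.00011 or less). The response differed between the lines for CXADR at 2 h (-1.24, adjusted p = 3.5e-05) and at 6 h for TJP3 (-2.10, adjusted p = 4.2e-06), CGNL1 (-1.74) and CXADR (-1.38), and in the other direction for MAGI3 (1.08, adjusted p = 2.4e-06), where 11% and 14.8% of all tested genes were called.

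**Figure D5:**
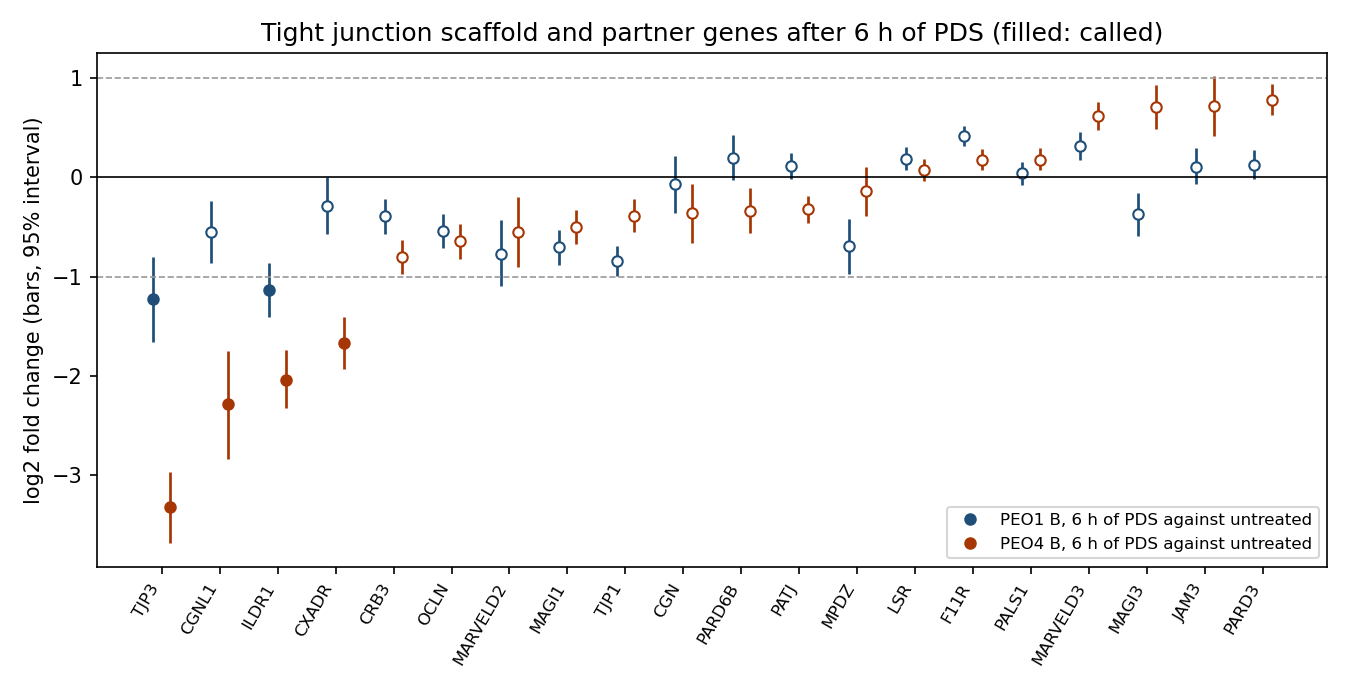
Points are log2 fold changes after 6 h of PDS with 95% intervals for 20 of the 21 tested scaffold and partner genes in PEO1 B and PEO4 B, ordered by the PEO4 B value and filled where called. TJP3, CGNL1, ILDR1 and CXADR form the low end in PEO4 B (-3.33 to -1.67), and 2 of them are also called in PEO1 B.

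All 7 claudin-binding surface proteins were tested, and none was called between the lines in A or untreated B or after PDS in PEO1 B, against 25.8%, 24.8%, 7.57% and 8.13% of all tested genes. EPCAM, shown because it binds CLDN7, was at 377 to 414 CPM in untreated PEO4 B and 569 to 573 after 6 h. CD9, a tetraspanin, was called lower after 6 h in PEO4 B, from 324 to 454 CPM to 132 to 137, at -1.57 (adjusted p = 2.3e-13), and its response differed from that in PEO1 B by -1.64 (adjusted p = 2.1e-10).

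Of 12 transcription factors known to act on claudin genes, 10 were tested in A and 11 in B. The shares of all tested genes called were 25.8% in A, 24.8% in untreated B, 7.57% and 8.13% after 2 and 6 h in PEO1 B and 17.4% and 22.6% in PEO4 B. Between the A lines 1 was called higher in PEO4, OVOL1 at 1.22. In the same comparison 3 were called lower, SNAI2, the repressor Slug, at -7.07 (adjusted p = 4.2e-07), OVOL2 at -1.45 and KLF4 at -1.09. SNAI2 was low in A, at 86 to 140 counts per library in PEO1 A and 0 to 2 in PEO4 A. In untreated B 2 were called higher, with OVOL1 at 1.62, and 2 lower, KLF4 at -1.35 and SNAI2 at -2.24. After PDS in PEO1 B 1 factor was called at each time, SNAI2, which rose from 1.65 to 2.64 CPM to 6.06 to 7.81 after 2 h (1.70, adjusted p = 4.3e-08) and to 5.67 to 6.52 after 6 h (1.48). In PEO4 B 2 were called higher and 1 lower after 2 h and 2 lower after 6 h. After 2 h KLF4 rose from 13.4 to 25.0 CPM to 64.3 to 85.2 (2.06, adjusted p = 2.2e-08) and SNAI1 (Snail) by 1.40, and KLF4 fell back by 1.3 by 6 h (adjusted p = 2.1e-06), when OVOL1 was -1.03 against untreated. GRHL1, GRHL2 and SP1 were under the fold threshold in all the PDS comparisons within a line. GRHL1 was -0.62 and -0.73 after 2 and 6 h in PEO1 B and -0.97 and -0.91 in PEO4 B, and SP1 was -0.37 and -0.32 in PEO1 B and -0.50 and -0.56 in PEO4 B, all past the adjusted p. GRHL2 was 0.32 and 0.29 in PEO1 B, and in PEO4 B -0.56 after 2 h (adjusted p = 2.6e-07) and 0.05 after 6 h (adjusted p = 0.51).

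The genes whose log2 CPM followed each claudin most closely over the 18 B libraries, among 10241 genes with a mean log2 CPM of at least 3, were MANEAL for CLDN1 (Pearson r = 0.995), TRIM8 for CLDN16 (0.985), FAM20C for CLDN3 (0.985), USE1 for CLDN4 (0.965), SPINT2 for CLDN7 (0.954) and POC1B-GALNT4, a read-through gene that shares reads with GALNT4, for CLDN12 (0.973). These values describe 18 libraries that share line, treatment and depth differences, and each is the highest of many.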

How the data were processed

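Poly(A) RNA of 24 libraries (8 conditions, 3 libraries each) had been sequenced as paired ends. The authors trimmed reads with fastp, aligned them to hg38 with STAR and deposited raw counts per gene in 2 tables (A, 6 libraries; B, 18), and the submitters' processing notes also name featureCounts and FastQC. The annotation and strand setting were not given in the sources used here. From the counts, TMM-scaled CPM were computed within each table, and edgeR 4.0.16 (R 4.3.3) robust quasi-likelihood fits were made over all 6, 18 or 24 libraries after filterByExpr (minimum count 10), with Benjamini-Hochberg adjustment over all 15882, 17020 or 17531 genes tested. The fits leave 4, 12 and 16 residual degrees of freedom. Intervals are 95%. Genes were called at adjusted p under 0.05 and absolute log2 fold change over 1, in 11 comparisons. On simulated data 194, 195 and 195 of 200 changed genes were recovered in the 3 fits, with 5, 3 and 2 false calls. The comparisons were, in order, PEO4 A against PEO1 A among 15668 genes and 2 h of PDS in PEO4 B among 16638. The last was the B pair minus the A pair among 17022. Recovery near the fold threshold, or at counts as low as those of CLDN10, was not tested separately. Library totals of 18699929 to 63882077 counts give CPM with small counting error except for CLDN6 and CLDN10. No 2 libraries of a group agreed within sampling noise. Lengths, exons and coordinates came from GENCODE 44 and RefSeq on GRCh38. Genes outside the 8 were named by a rule, the called genes of each list with the 3 largest fold changes and a mean log2 CPM of at least 0. EPCAM, OCLN, TJP1, MAGI3, GRHL1, GRHL2, SP1 and, at 6 h in PEO4 B, CXADR among 4 scaffolds were named after their values were seen. So was SNAI2 in A, where its mean log2 CPM of -2.2 was under that limit. Individual values of 2 list genes are not reported here. The members and lists were chosen with earlier results of these data known. Alternatives tried were other scalings, no filter, DESeq2 1.42.0, a replicate block, fits of only the groups compared, the adjusted p alone and each library left out.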

Additional observations from a re-analysis of the deposited data

Results flagged for a closer look

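Among the 8 claudins, of which 7 were tested, 3 results differed between groups by edgeR's quasi-likelihood test of the difference itself. For the 2 h responses 1 of 7 was called, against 11% of all tested genes. For the 6 h responses 0 of 7 were called, against 14.8%, and for the pairs 2 of 7, against 15%. The response of CLDN3 to 2 h of PDS was 1.08 higher in PEO4 B than in PEO1 B on the log2 scale, with the treated libraries above all untreated ones in PEO4 B and below all untreated ones in PEO1 B. Without PEO4 B 2 h replicate 2 this difference was 0.92 and was not called. The line difference of the B pair minus that of the A pair was -2.55 for CLDN1 and -2.10 for CLDN16, and there BRCA2 status, stock, medium and table cannot be told apart.

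Genes of the junction, factor and claudin lists differed in the same tests. At 2 h the difference of the responses was 2.15 for CLDN11, 1.54 for KLF4, -1.24 for CXADR and -1.12 for SNAI2. At 6 h it was 2.38 for CLDN11, -2.10 for TJP3, -1.74 for CGNL1, -1.64 for CD9, -1.58 for SNAI2 and -1.38 for CXADR. The line differences of the 2 pairs differed by 2.30 for CLDN11, 1.21 for GRHL3, 1.2 for SNAI1, 1.15 for CGNL1 and 1.01 for MPDZ.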

How the results depend on the processing

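Of 76 results for single claudins, 28 kept their direction and side of the threshold in every alternative run. The adjusted p alone drops the fold threshold, so it can only add calls, and it did so for 36 of the 76. Counts of called claudins moved most with the adjusted p alone, to 2 in A, 5 in untreated B, 5 and 4 after 2 and 6 h in PEO1 B, 1 between these times, 6 and 6 in PEO4 B, 6 between its times, and 4 and 2 for the differences of the 2 h and 6 h responses. Over all genes it passed 9787 instead of 4095 in A, 11672 instead of 4228 in untreated B, 8947 and 9024 instead of 1288 and 1383 in PEO1 B, 1182 instead of 29 between its times, 11122 and 11881 instead of 2959 and 3848 in PEO4 B, 10237 instead of 2039 between its times, 6351 and 8070 instead of 1876 and 2512 for the differences of responses and 7475 instead of 2632 for the pairs. Library totals called 1 claudin after 6 h in PEO1 B (CLDN3, -1.05) and 1 after 2 h in PEO4 B (CLDN16, -1.03), and moved the median of all genes after PDS to between -0.19 and -0.13, from between -0.03 and 0. The count after 2 h in PEO4 B was 1 with no filter (CLDN4, 1.02) and 1 with the replicate block (CLDN4, 1.0), which changed no other claudin call. Deviations from the group mean correlated at -0.158 to 0.134 between same-numbered libraries of different groups. Differently numbered libraries were not set beside these, so whether the numbers pair libraries was not tested. After 6 h in PEO4 B the count was 1 with DESeq2, with no filter and with only the groups compared, as CLDN10 was lost. Over all genes, 6 h against 2 h in PEO1 B gave 29 calls in edgeR, 16 in DESeq2 and 13 to 40 with 1 library left out.

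With 1 library left out, counts were 0 to 1 in A, 0 to 2 after 2 h and 1 to 2 after 6 h in PEO4 B, and 0 to 1 for the difference of 2 h responses. The 2 after 2 h in PEO4 B came without untreated replicate 2, when CLDN4 and CLDN10 (-1.41) were called. Directions turned only in results that were not called. With library totals CLDN1 was -0.02 and CLDN12 -0.08 after 6 h in PEO1 B, and CLDN12 was -0.02 with upper-quartile scaling. With 1 library left out, CLDN1 ranged from -0.19 to 0.08 after 6 h in PEO4 B, CLDN4 from -0.20 to 0.08 for the difference of 6 h responses and CLDN7 from -0.08 to 0.02 for the pairs. CLDN10 ranged from -0.12 to 0.32 between the times in PEO1 B, from -0.58 to 0.06 in PEO4 B and from -3.51 to 2.64 for the pairs. CLDN10 and CLDN6 were limited by their counts, and no statement on them is firm at this depth.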
